A study of Mus musculus with 4 samples.

Results

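The genes described here are the cell cycle genes held to be targets of the microRNA family of miR-15, miR-16 and miR-195, in *Ebf1*-/- fetal liver (FL) hematopoietic progenitor cells (HPCs) that received a *Mir195* virus. The members are 9 genes chosen by name: the cyclins *Ccnd1*, *Ccnd2*, *Ccnd3* and *Ccne1*, the kinases *Cdk6*, *Wee1* and *Chek1*, the phosphatase *Cdc25a* and the transcription factor *E2f3*. Every probe that the array names for one of them was taken, which gave 12 of the 39429 probes, and 9 of 31829 gene names. The rule uses no measured value. *Ccnd3*, *Ccne1* and *E2f3* have 2 probes each and the other members have 1 each.

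A microRNA guides a silencing complex to messenger RNAs, mainly through pairing of its seed with the 3′ untranslated region, and lowers translation or the level of the message. This family is known for holding cells in G1 through D and E type cyclins, their kinases and the CDC25A phosphatase. D type cyclins with CDK4 or CDK6, and later cyclin E with CDK2, phosphorylate the retinoblastoma protein and release E2F factors, which switch on the genes of DNA replication. WEE1 and CHEK1 act the other way, since both hold back cyclin-dependent kinases when DNA is incomplete or damaged. In early B lineage cells, signals of IL-7 and the pre-B cell receptor act on cyclins D2 and D3, and these cells alternate between division and rearrangement of their receptor genes.

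All cells were Lin- cells of FLs from *Ebf1*-/- mid-gestation embryos, so EBF1, the factor that starts the B cell programme, was lacking in both groups. They were infected with the retrovirus MDH1-PGK-GFP alone (EMPTY) or with the same virus carrying *Mir195*. The *Mir195* segment was amplified from the human leukemia line RS4;11, and no array of cells without virus was used here. Both groups received SCF, IL-7 and Flt-ligand at 10 ng/mL each, and the general condition of the methods was 7 days of culture on OP9 cells, a mouse stroma line. A sort of infected cells before RNA extraction is not given in the sources used here, nor is a pooling of FLs from several embryos.

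RNA of 2 samples per virus was hybridised to Agilent mouse arrays with a single dye. Whether replicates came from separate embryos or cultures is not stated, so that p-values measure only the spread between these samples, which may be technical. The EMPTY arrays lie in the first and the *Mir195* arrays in the last positions of the same slide, so position and virus cannot be told apart. Each array had 23678 to 24701 probes well above background, and a 75th percentile of signal between 902.5 and 1127. The RNA was of whole cultures, in which fewer cells of a type and less RNA per cell cannot be told apart. The progenitor markers *Ptprc*, *Kit*, *Flt3* and *Cd34* were well above background, while *Gata2* of the same list was not on any array. The labels place the cells near the pro-B cell stage. Of 21 markers of stroma, 15 were tested, and their summed level, on the scale where the 75th percentile of an array is 1, was 24.72 and 25.09 with EMPTY and 20.69 and 29.62 with *Mir195*. These sums rest largely on *Thy1*, the brightest of the markers on every array but *Mir195* replicate 2, where *Sparc* was brighter. *Thy1* is not a marker of stroma alone, and it was lower on both *Mir195* arrays (log2 fold change -0.59). Its fall lowers both *Mir195* sums, so the sum partly hides the higher level of other stroma markers on *Mir195* replicate 2. *Pdgfra*, *Dcn*, *Lum*, *Postn* and *Cdh11* were not well above background anywhere. The 10 markers of T and NK cells were all below 0 in log2 fold change, 5 of them without overlap of the viruses (of all tested genes 52.2% were above 0 and 14.7% lower without overlap), and their sums were 72.82 and 74.27 with EMPTY and 66.97 and 69.01 with *Mir195*. The 9 tested progenitor markers summed to 114.2 and 122.4 with EMPTY and 130.7 and 128.9 with *Mir195*, and 10 myeloid markers to 17.54 and 18.47 against 17.8 and 18.12. The myeloid sums join shifts in both directions, with 6 markers above 0 and 4 below, from -0.55 to 0.72 in log2 fold change. The part of these differences in the values of the members was not tested.

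The seed of *Mir195* is the stretch that pairs with target messages, and it is therefore shown first, next to relatives that share it. The mouse microRNAs miR-6342, miR-6353 and miR-6419 have the same seed and are not shown. The sequences are the mouse mature forms in RefSeq (GRCm38.p6), written 5′ to 3′, with the seed (bases 2 to 8) in capitals.
mmu-miR-195a-5p: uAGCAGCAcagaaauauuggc
mmu-miR-15a-5p: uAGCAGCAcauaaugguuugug
mmu-miR-15b-5p: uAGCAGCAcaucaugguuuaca
mmu-miR-16-5p: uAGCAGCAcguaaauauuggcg
mmu-miR-195b: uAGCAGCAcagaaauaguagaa
mmu-miR-497a-5p: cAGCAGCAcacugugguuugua
mmu-miR-322-5p: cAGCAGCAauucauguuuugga
All carry the same 7 bases and differ outside them, in miR-497a-5p and miR-322-5p also at base 1. The first, of 21 bases, lies on the plus strand at chr11:70235062-70235082, in the same cluster as miR-497a-5p at chr11:70234730-70234751. Over their shared length, miR-16-5p differs from miR-195a-5p at 2 positions, miR-195b at 3, miR-15a-5p at 6, miR-15b-5p at 7, miR-497a-5p at 9 and miR-322-5p at 10. Messages that pair with the virus-borne microRNA through the seed could therefore pair with these relatives too, whose levels were not measured by this array.

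The reverse complement of the seed followed by an A, TGCTGCTA, was searched in the 12 probes of the members on both strands. So were the shorter form TGCTGCT without the last base, the form GCTGCTA without the first, and the core GCTGCT, all of which lie within it. Of these probes only A_51_P408946 of *Ccne1* held a match, on the strand as deposited, at positions 37 to 44 of its 60 bases. The surrounding stretch is given because it is the only seed match that the deposited sequences of the members contain, and the match is in capitals.
A_51_P408946, positions 21 to 50: ctcttattttgtaaggTGCTGCTAtgtcta
The 8 bases TGCTGCTA occurred in 58 of the 39429 probes (0.147%), TGCTGCT in 317 (0.804%), GCTGCTA in 126 (0.32%) and GCTGCT in 823 (2.09%) on the same strand. On the other strand these shares were 0.0583%, 0.609%, 0.198% and 1.88%, and 0 member probes had a match. A probe covers only 60 bases of a message, and the rest of the 3′ untranslated regions was not analysed here. In the table of predicted *Mir195* targets that accompanies the study, 6 of the 9 members are listed. *Ccnd2*, *Ccne1* and *Wee1* are there for targetScan, PITA and miRanda, *Cdc25a* for targetScan and miRanda, *E2f3* for targetScan and PITA, and *Ccnd3* for miRanda alone. *Ccnd1*, *Cdk6* and *Chek1* are not listed.

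For none of the 12 member probes did the difference between the viruses pass the test. All of them were well above background on all 4 arrays, so each entered the comparison of 23723 probes. limma called 0 of the 12 at an adjusted p under 0.05, as it did for 0% of all tested probes. The count over all probes rested on the setting, with 900 without *Mir195* replicate 1, 3 without *Mir195* replicate 2, 3 with median scaling and 5 with the replicate block, while that of the members was 0 in each. At an unadjusted p under 0.05 there were likewise 0 member probes, against 1979 of all probes. The adjusted p of the members, by Benjamini-Hochberg over all tested probes, lay between 0.803 and 0.998, and the lowest of any probe was 0.101. The smallest p that an exact permutation test (two-sided) allows for 2 arrays per virus is 0.333. The methods' t-test (one-sample), here run on log2 ratios paired by replicate number, a pairing that the methods do not state, reached the threshold for 1 member, *Wee1*, and 1133 probes in all, and made 0 calls after Benjamini-Hochberg adjustment.

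The member probes had log2 fold changes (*Mir195* minus EMPTY) between -0.27 for *Ccnd2* and 0.30 for *Chek1*. Of the 12, 8 were above 0 and 4 below. Their median was 0.01, as was that of all tested probes. This median rests on single arrays, since leaving out EMPTY replicate 1 gave -0.07 and leaving out EMPTY replicate 2 gave 0.13, where all probes had -0.0074 and 0.04, and -0.06 without *Mir195* replicate 1 and 0.13 without *Mir195* replicate 2, where all probes had 0.0062 and 0.03. Their median absolute value was 0.099 beside 0.125 for all. Both *Mir195* arrays lay below both EMPTY arrays for 2 member probes, *Ccnd2* and *Cdk6*, an arrangement found in 14.4% of all tested probes. It was found for 0 member probes, and for 15.8% of all tested probes, in the table of log2 values that the authors deposited. They were the higher ones for 2, *Wee1* and *Chek1*, an arrangement found in 23.4%. For the remaining 8 probes the groups overlapped. In the authors' table the *Mir195* arrays were the higher ones for 1 member probe and for 21.6% of all tested probes.

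**Figure D1:**
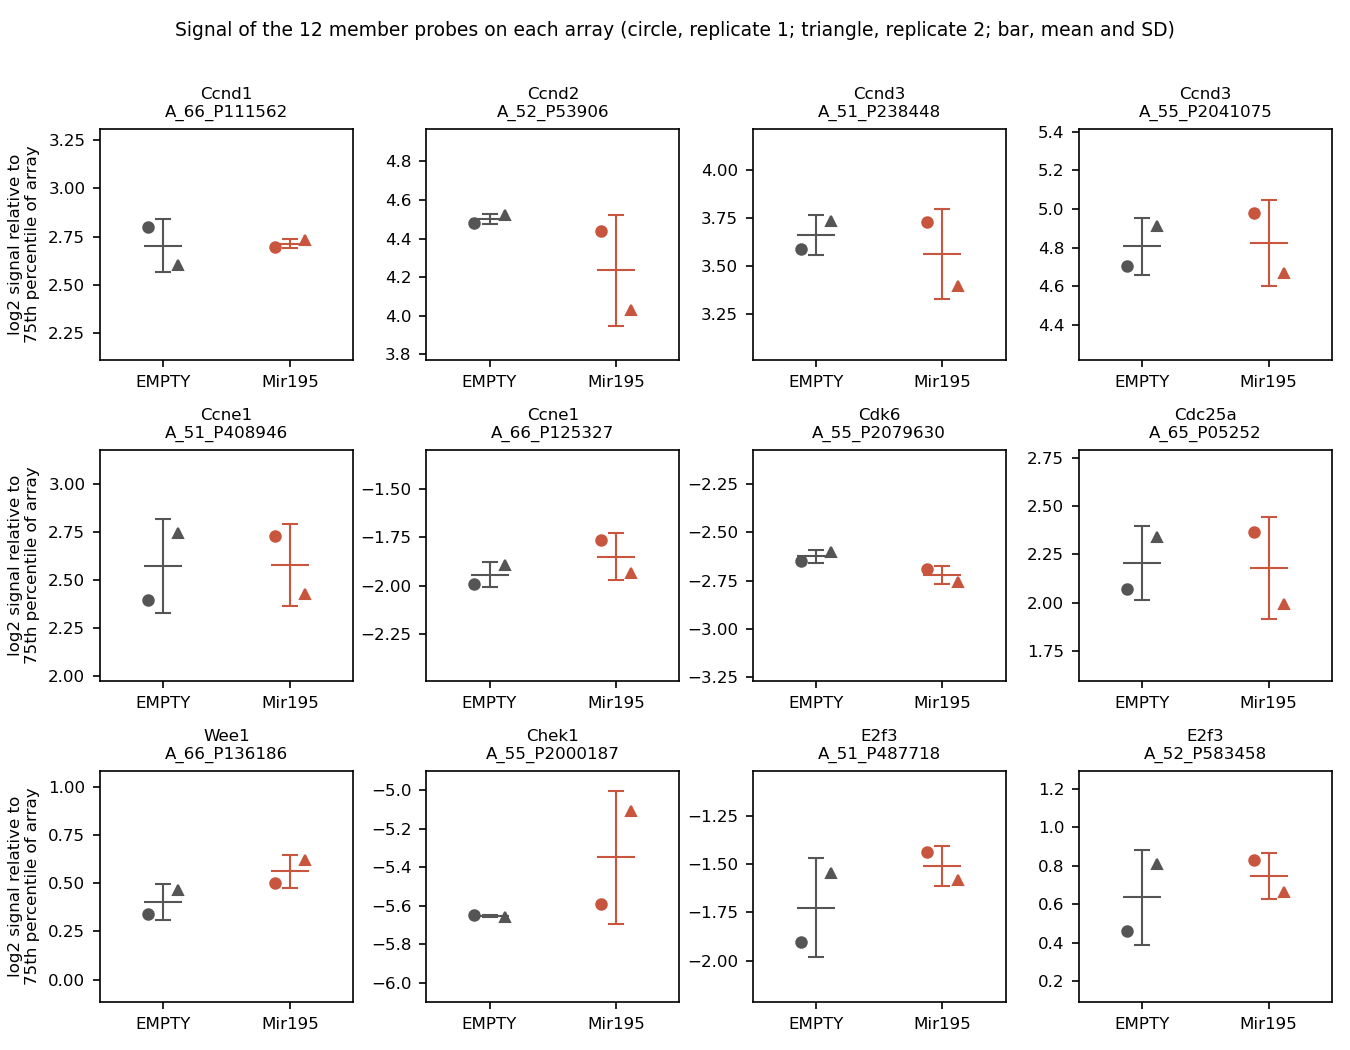
Log2 signal of each member probe above the 75th percentile of the array (vertical axis, a window of 1.2 units in every panel) for the EMPTY and *Mir195* arrays. The circle is replicate 1, the triangle replicate 2, and the bars are the mean and SD of 2 arrays; the groups are apart only for *Ccnd2*, *Cdk6*, *Wee1* and *Chek1*, and for *Ccnd2* and *Chek1* the *Mir195* replicates differ by 0.41 and 0.49.

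The D type cyclins receive growth signals at the start of G1. *Ccnd2*, which encodes cyclin D2 (chr6:127125162-127152188, GRCm38.p6), is the member with the largest fall. In log2 units above the 75th percentile of its array, the scale of all levels below, it gave 4.48 and 4.52 with EMPTY and 4.44 and 4.03 with *Mir195*. *Mir195* replicate 2 stood alone, and replicate 1 lay only just under the EMPTY values. The log2 fold change was -0.27 (standard error 0.17, 95% interval -0.72 to 0.19, adjusted p = 0.806 from limma), that is 0.831 times the EMPTY signal. Leaving out *Mir195* replicate 2 gave -0.06 and leaving out replicate 1 gave -0.47, and the direction was kept in all 13 alternatives. Those that change only the filter or the variance model, or add a replicate block, could not have turned it.

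*Ccnd3* encodes cyclin D3, which pre-B cells need for their expansion (chr17:47505051-47599689). Its probe A_51_P238448 gave 3.59 and 3.73 with EMPTY and 3.73 and 3.40 with *Mir195*. The second probe, A_55_P2041075, gave 4.70 and 4.91 with EMPTY and 4.98 and 4.67 with *Mir195*. In both probes EMPTY replicate 2 and *Mir195* replicate 1 were the higher arrays, and the groups overlapped. The log2 fold changes were -0.10 (standard error 0.16, 95% interval -0.53 to 0.33) and 0.02 (standard error 0.17, 95% interval -0.42 to 0.45), with adjusted p of 0.933 and 0.990 from limma. *Ccnd1*, the gene of cyclin D1 (chr7:144929931-144939831), gave 2.80 and 2.60 with EMPTY and 2.70 and 2.73 with *Mir195*, so that both *Mir195* values lay between those of EMPTY. Its log2 fold change was 0.01 (standard error 0.13, 95% interval -0.33 to 0.35, adjusted p = 0.992 from limma).

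Cyclin D is bound by CDK6, a kinase that blood cells use widely (*Cdk6*, chr5:3341004-3531008). The *Cdk6* probe gave -2.65 and -2.60 with EMPTY and -2.69 and -2.75 with *Mir195*. The *Mir195* values were the lower ones, by a small distance. The log2 fold change was -0.10 (standard error 0.12, 95% interval -0.40 to 0.21, adjusted p = 0.903 from limma), and it was 0.04 with the normexp background correction.

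Cyclin E acts after cyclin D and takes cells into S phase. *Ccne1* (chr7:38097984-38107490) was measured by the probe with the seed match and by A_66_P125327. The former gave 2.40 and 2.74 with EMPTY and 2.73 and 2.43 with *Mir195*, and the latter -1.99 and -1.90 with EMPTY and -1.76 and -1.94 with *Mir195*. For A_51_P408946 the array pairs were nearly mirror images, since the difference between EMPTY replicates (0.35) and that between *Mir195* replicates (0.30) were both far above the difference of the means. The log2 fold change was 0.01 (standard error 0.19, 95% interval -0.48 to 0.50, adjusted p = 0.998 from limma), and its sign turned in 5 of the 13 alternatives. For A_66_P125327 it was 0.09 (standard error 0.13, 95% interval -0.25 to 0.43, adjusted p = 0.919 from limma).

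The phosphatase CDC25A removes inhibitory phosphates from cyclin-dependent kinases. *Cdc25a* (chr9:109875518-109893895) gave 2.07 and 2.34 with EMPTY and 2.36 and 1.99 with *Mir195*, EMPTY replicate 2 and *Mir195* replicate 1 again the higher arrays. The highest and the lowest array were both of *Mir195*. Between the means the log2 fold change was -0.03 (standard error 0.19, 95% interval -0.52 to 0.46, adjusted p = 0.986 from limma), which leaves room for a fall of 30.2% at the lower end of the interval.

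The kinase WEE1 adds the phosphates that CDC25 enzymes remove. *Wee1* (chr7:110122059-110143299) gave 0.34 and 0.47 with EMPTY and 0.50 and 0.62 with *Mir195*. Both *Mir195* arrays were higher, while EMPTY replicate 2 and *Mir195* replicate 1 differed by less than the replicates of either virus. The log2 fold change was 0.16 (standard error 0.13, 95% interval -0.17 to 0.49, adjusted p = 0.846 from limma), and it lay between 0.06 and 0.22 over the 13 alternatives. CHEK1 is the kinase through which stalled replication stops CDC25A. *Chek1* (chr9:36708482-36726658) gave -5.65 and -5.66 with EMPTY and -5.59 and -5.11 with *Mir195*. As for *Ccnd2*, *Mir195* replicate 2 stood apart from the other 3 arrays, here as the highest value. The log2 fold change was 0.30 (standard error 0.19, 95% interval -0.21 to 0.81, adjusted p = 0.803 from limma), and leaving out *Mir195* replicate 2 gave 0.06 and replicate 1 gave 0.55. This probe was dim. Its spots were 1.94 to 2.24 times as bright as the local background, and on *Mir195* replicate 2 this ratio was 2.08, within the 1.94 and 2.24 of the EMPTY arrays.

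*E2f3* encodes an activating E2F factor that drives entry into S phase (chr13:29906575-29986064). Its probe A_51_P487718 gave -1.91 and -1.54 with EMPTY and -1.43 and -1.58 with *Mir195*. Its probe A_52_P583458 gave 0.46 and 0.81 with EMPTY and 0.83 and 0.66 with *Mir195*. In both probes EMPTY replicate 1 was the lowest array and *Mir195* replicate 1 the highest, and the groups overlapped. The log2 fold changes were 0.22 (standard error 0.17, 95% interval -0.23 to 0.66) and 0.11 (standard error 0.17, 95% interval -0.33 to 0.55), with adjusted p of 0.840 and 0.927 from limma. Without EMPTY replicate 1 they were 0.04 and -0.06.

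**Figure D2:**
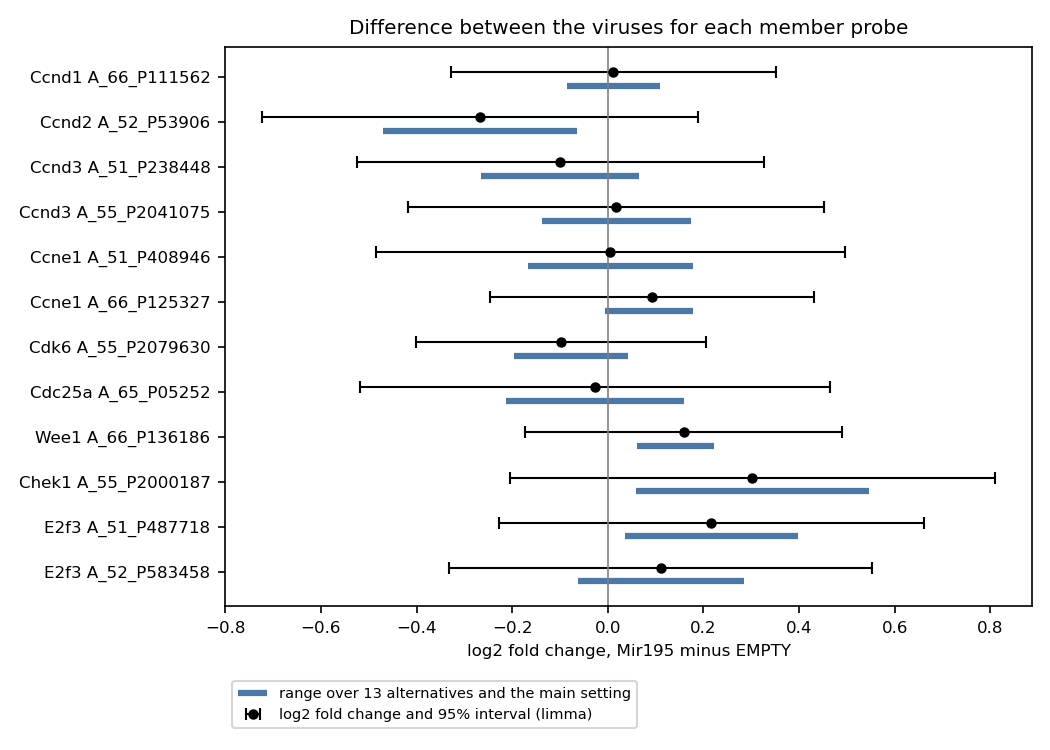
Log2 fold change (*Mir195* minus EMPTY, horizontal axis) of the 12 member probes, with the 95% interval of limma as a thin bar and the range over the main setting and 13 alternatives as a thick bar. Every interval spans 0, and the thick bars of *Ccnd2*, *Wee1*, *Chek1* and *E2f3* A_51_P487718 stay on one side of it.

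The 6 members of the table of predicted targets had 9 probes with a median log2 fold change of 0.02, between -0.27 and 0.22, of which 3 were below 0 and 6 above. The 3 members outside the table had 1 probe each and a median of 0.01, between -0.10 and 0.30. Both *Mir195* arrays lay below both EMPTY arrays for 1 probe of each set, *Ccnd2* and *Cdk6*. The precision of single probes sets the limit here. The lower ends of the 95% intervals allowed falls of 11.3% for *Wee1* to 39.4% for *Ccnd2*, and the size of a fall within these bounds was not detectable with 2 arrays per virus. The array measures messages, and the amount of the proteins was not measured.

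**Figure D3:**
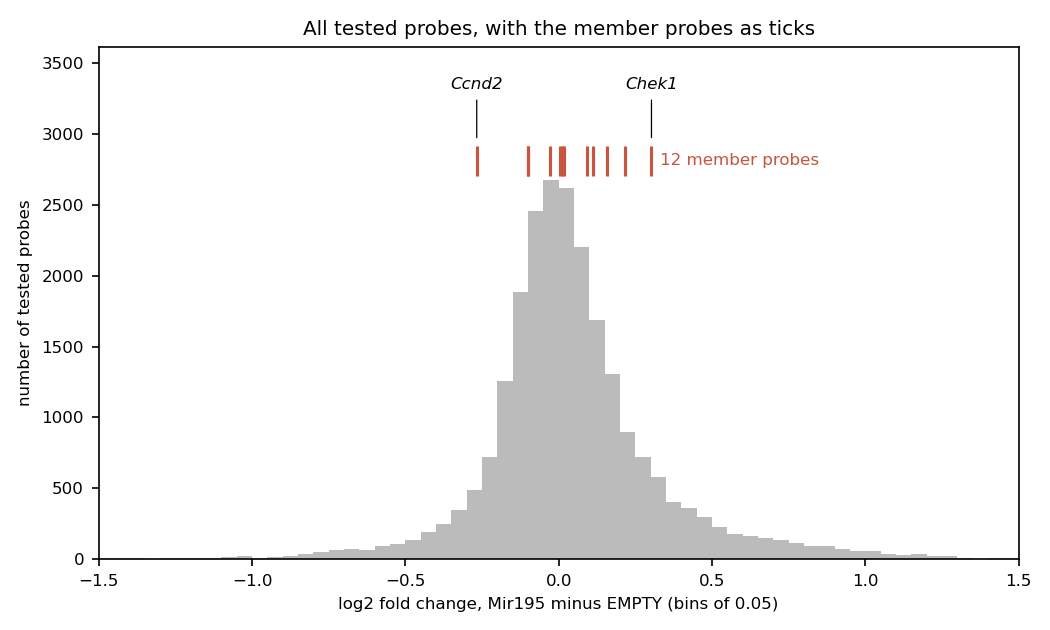
Number of tested probes (vertical axis) by log2 fold change, *Mir195* minus EMPTY (horizontal axis, bins of 0.05), with the 12 member probes as ticks above the bars. The axis shows 23602 of the 23723 tested probes, the other 121 lie beyond 1.5 in either direction, and all 12 member probes fall between -0.27 and 0.30.

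The median absolute log2 difference over the member probes was 0.171 between the EMPTY replicates and 0.238 between the *Mir195* replicates, where all tested probes had 0.147 and 0.194. Between arrays of different viruses it was 0.0667 for EMPTY replicate 2 and *Mir195* replicate 1, and 0.150, 0.194 and 0.199 for the other pairs, where all tested probes had 0.0951 and 0.160 to 0.228. The closest of the 6 array pairs was thus one of different viruses, over the members as over all probes, and the difference between the EMPTY replicates lay within the range of the pairs across viruses. *Mir195* replicate 2 was below *Mir195* replicate 1 in 9 of the 12 member probes and in 52.3% of all tested probes.

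Several G1 and S phase members and the replication genes were higher on the same pair of arrays, which is of different viruses. Relative to the mean of the 4 arrays, the member probes had a median of -0.12 on EMPTY replicate 1, 0.08 on EMPTY replicate 2, 0.12 on *Mir195* replicate 1 and -0.06 on *Mir195* replicate 2. *Ccnd3*, *Ccne1*, *Cdc25a* and *E2f3* were likewise higher on EMPTY replicate 2 and *Mir195* replicate 1 than on the other arrays, in each of their probes. The 23 tested genes of DNA replication that E2F factors induce had medians of -0.11, 0.09, 0.10 and -0.08 on the same arrays, and all tested probes -0.03, 0.02, 0.03 and 0.00. The stroma markers had -0.13, -0.07, -0.31 and 0.48, with *Sparc* at 2.51 and 2.63 with EMPTY and 2.47 and 3.41 with *Mir195*, and *Fn1* at 1.30 and 1.29 with EMPTY and 1.11 and 2.15 with *Mir195*. *Thy1*, which progenitors and T cells also carry, was lower on both *Mir195* arrays (-0.59, adjusted p = 0.530 from limma). *Mir195* replicate 2, the array on which *Ccnd2* was lowest and *Chek1* highest, was also the array with the highest summed level of the stroma markers. The part of stroma RNA in the values of *Ccnd2* and *Chek1* was not tested.

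**Figure D4:**
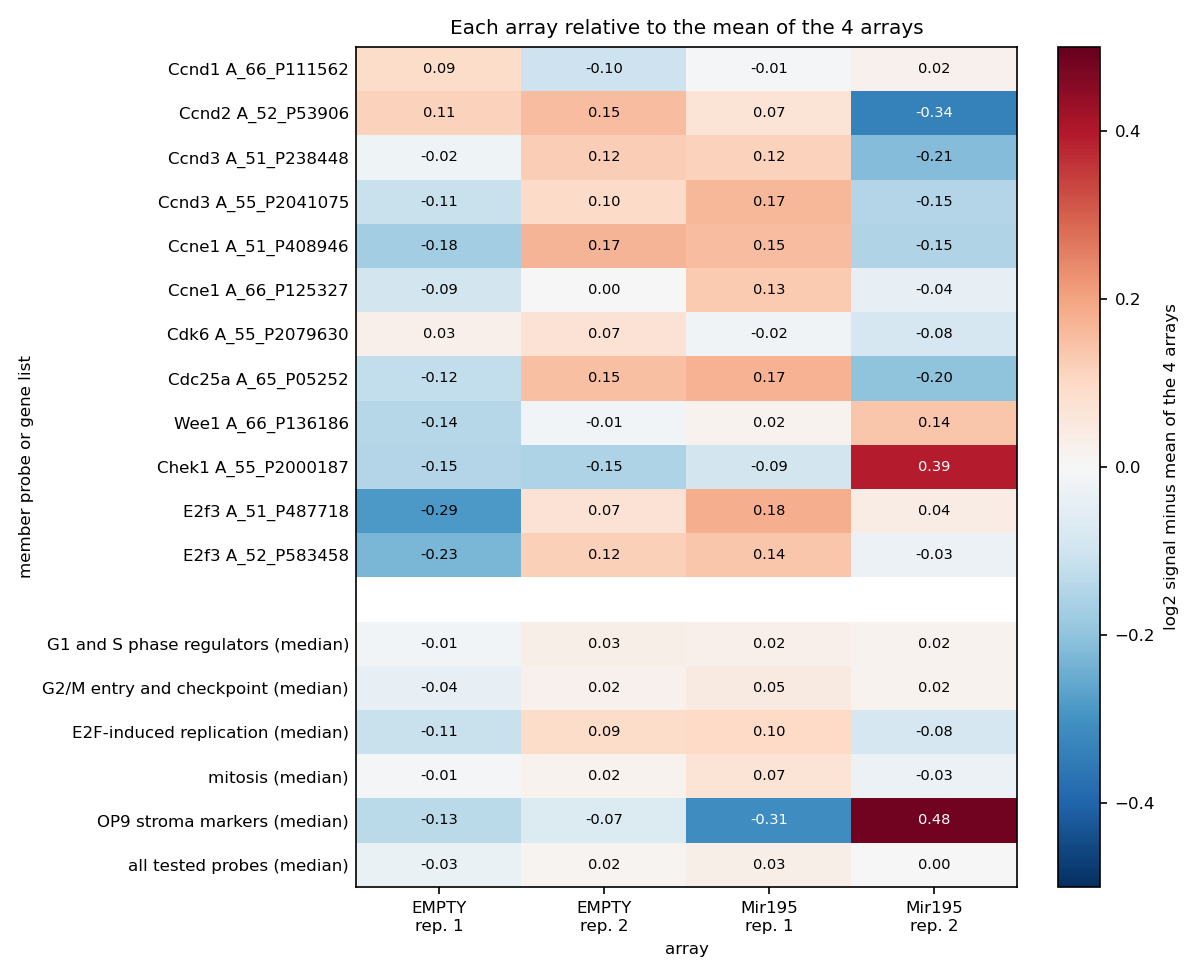
Log2 signal of each array minus the mean of the 4 arrays for the 12 member probes (upper rows) and the median of this value over the genes of each list (lower rows), printed in each cell and shown by colour from -0.5 to 0.5. Replication genes and the probes of *Ccnd3*, *Ccne1*, *Cdc25a* and *E2f3* are higher on EMPTY replicate 2 and *Mir195* replicate 1, whereas the stroma markers reach 0.48 on *Mir195* replicate 2.

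The genes around the members in the cell cycle were read from 4 lists. limma called 0 genes in each of them, and 23.1% of all tested genes were higher without overlap of the viruses, beside the 14.7% that were lower. Of 26 regulators of G1 and S phase, 25 were tested and *Ccne2* was not well above background. Of these, 15 were above 0 and 10 below, with a median of 0.01, and *Mir195* was lower without overlap in 4 and higher without overlap in 3. *Cdkn2a*, which encodes p16INK4a and p19ARF, gave -2.52 and -3.81 with EMPTY and -4.75 and -4.04 with *Mir195*, a difference of -1.23 (standard error 0.49, adjusted p = 0.620 from limma) in which the EMPTY replicates differed by more than the means. Its neighbour *Cdkn2b*, the gene of p15INK4b, gave -2.54 and -4.06 with EMPTY and -4.26 and -3.25 with *Mir195*, a difference of -0.45 with overlap. Other kinase inhibitors of the list had *Cdkn2c* at -0.42 without overlap, *Cdkn1c* at -0.17, *Cdkn1b* at -0.16, *Cdkn2d* at -0.0065 and *Cdkn1a* at 0.10. At the other end, *E2f5* and *E2f6*, which encode repressor E2F factors, had log2 fold changes of 0.28 and 0.16.

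The 18 genes of entry into mitosis and of the DNA damage checkpoint were all tested, 11 above 0 and 7 below, with a median of 0.05, a lowest adjusted p of 0.811 from limma, 3 lower and 4 higher without overlap. *Trp53*, the gene of p53, had a log2 fold change of -0.26 and *Cdk1*, the kinase of mitotic entry, one of -0.18. *Mdm2*, whose product degrades p53, and *Ccnb1*, the cyclin B1 partner of CDK1, had 0.17 and 0.16. *Trp53* was -0.18 and -0.17 with EMPTY and -0.19 and -0.69 with *Mir195*, so that only *Mir195* replicate 2 stood apart.

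Among the genes of DNA replication, the targets of the E2F factors that the members release, 23 of 24 were tested, 14 were above 0 and 9 below, and the median was 0.03. *Tyms*, the gene of thymidylate synthase, had a log2 fold change of 0.22 without overlap of the viruses. *Gins2*, of the replicative helicase complex, and *Tk1*, the gene of thymidine kinase, had -0.17 and -0.13 with overlap. The summed level of the list was 308.3 and 347.2 with EMPTY and 350.5 and 316.9 with *Mir195*.

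Of 15 mitosis genes, 14 were tested and *Aurkb* was not well above background. There were 8 above 0 and 6 below, the median was 0.01 and the lowest adjusted p was 0.664. *Cenpf*, of the kinetochore, and *Mki67*, the gene of the division marker Ki-67, had log2 fold changes of 0.25 and 0.09, while *Tpx2* of the spindle and *Cdc20* of the anaphase-promoting complex had -0.21 and -0.11. The summed level was 108.5 and 120.3 with EMPTY and 121.6 and 108.5 with *Mir195*, so that EMPTY replicate 2 and *Mir195* replicate 1 were the higher arrays, as in the replication list. By summed level the same pair was the higher one in the G1 and S phase list, with 90.07 and 100.2 against 100 and 96.63. It was so too in the checkpoint list, with 69.76 and 76.42 against 75.19 and 69.8. The G1 and S phase sum rests largely on its brightest gene, *Cdk4*, at 5.38 and 5.63 with EMPTY and 5.63 and 5.57 with *Mir195* in log2 units. Relative to the mean of the 4 arrays, the medians of that list were -0.01, 0.03, 0.02 and 0.02. Those of the checkpoint list were -0.04, 0.02, 0.05 and 0.02. Both lists were near the -0.03, 0.02, 0.03 and 0.00 of all tested probes. The mitosis list had -0.01, 0.02, 0.07 and -0.03, on EMPTY replicate 2 the same as all tested probes.

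The genes whose pattern over the 4 arrays was most like that of *Chek1*, the member with the largest absolute log2 fold change, were *Txnl1*, *Eml1* and *Mmab*. After centring, their Euclidean distances to *Chek1* over the 4 arrays were 0.0283, 0.0405 and 0.0429 on the log2 scale. *Txnl1*, which encodes a thioredoxin-like protein, gave -2.18 and -2.22 with EMPTY and -2.12 and -1.65 with *Mir195*. All 3 share with *Chek1* the higher signal on *Mir195* replicate 2, and a likeness over 4 arrays is a description of these arrays only.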

How the data were processed

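RNA of 4 samples, 2 per virus, was labelled with Cy3 and hybridised to whole mouse genome 4x44K v2 arrays. The authors deposited scanner output, of which the intensity per spot with local background and spatial trend removed was used, and a table of log2 values normalized with GeneSpring to the 75th percentile. The file headers give Feature Extraction 9.1.3.1 and the submitters' processing notes 11.5.1.1. The deposited log2 table correlated with the values computed here with r = 0.998 on each array. Its medians were -4.45, -4.42, -4.41 and -4.29, below 0 as a shift to the 75th percentile gives. Its exact centring was not checked, and it was used only as an alternative.

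From the intensity, log2 was taken, spots of a probe were averaged and the 75th percentile of the array was subtracted. Control spots and outlier spots (21 to 65 per array, 101 probes) were left out, and 0 spots were saturated. Probes were tested if both arrays of EMPTY or both of *Mir195* were well above background, with lmFit and eBayes of limma 3.58.1 (R 4.3.3, with data.table, version 1.17.8), two-sided, with Benjamini-Hochberg adjustment and a threshold of 0.05. Symbols followed accessions in GRCm38.p6 for 26055 of 39429 probes. The number of arrays limits the precision. The fit was tested on simulated data.

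Samples were grouped by title. Members and lists were chosen with earlier results of these data known. The named genes are all members, the 2 largest rises and falls of each list, the 3 genes nearest to the member with the largest difference, and the 3 brightest stroma markers. Further genes are named as list genes not above background, as the brightest gene of a list, as other kinase inhibitors or as defining markers, after their values were seen. Some genes under these rules are not reported here. A list counts the brightest probe per gene, and its summed level adds the linear values relative to the 75th percentile. Besides the block, alternatives were other background correction (normexp, offset 50), normalization, filters, variance model, the methods' t-test and leaving out each array.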

Additional observations from a re-analysis of the deposited data

How the results depend on the processing

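In all 15 alternatives 0 member probes were called. Those that leave out an array keep 1 array of a virus, which is assumed to vary like the pair of the other virus. Over all tested probes 0 were called with the main setting, 3 with median scaling, 5 with the replicate block, and 0 to 900 when single arrays were left out, with 900 without *Mir195* replicate 1 and 3 without *Mir195* replicate 2. The count of member probes with both *Mir195* arrays lower was 2, but 1 with normexp, 0 in the authors' table and 2 to 5 when arrays were left out, with 4 without EMPTY replicate 1 and 5 without *Mir195* replicate 1. Such counts rise with fewer arrays, and of all tested probes 33.7% and 38.2% had this arrangement at these 2 settings. The share of all tested probes was 14.4% with the main setting, 10.4% with normexp and 15.8% in the authors' table. Without EMPTY replicate 2 it was 24.5%, and without *Mir195* replicate 2 it was 25.4%. The median of the checkpoint list was 0.05, but 0.083 with normexp, 0.0083 with quantile normalization and -0.052 with median scaling, which also took the mitosis list from 0.01 to -0.092. Median scaling placed the median of all probes at -0.08 and took the member genes to -0.086, the G1 and S phase list to -0.083 and the replication list to -0.066. Leaving out single arrays gave medians of -0.13 to 0.12 for the member genes and -0.073 to 0.13 for the replication list, which was lower without EMPTY replicate 1 or *Mir195* replicate 1, and higher without EMPTY replicate 2 or *Mir195* replicate 2.

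The sign of log2 fold changes near 0 turned in these cases. With normexp *Ccne1* A_51_P408946 was -0.0064 and *Cdk6* 0.042. With median scaling *Ccnd1* was -0.086, *Ccnd3* A_55_P2041075 -0.080, and the *Ccne1* probes -0.092 and -0.0055. In the authors' table *Ccnd3* A_55_P2041075 was -0.0086 and *Ccne1* A_51_P408946 -0.012. Without EMPTY replicate 1 these probes were -0.086 and -0.17, and *E2f3* A_52_P583458 was -0.063. Without EMPTY replicate 2 *Ccnd1* was -0.086 and *Cdc25a* 0.11. Without *Mir195* replicate 1 *Ccnd3* A_55_P2041075 was -0.14 and *Ccne1* A_51_P408946 -0.15. Without *Mir195* replicate 2 *Ccnd1* was -0.0052, *Ccnd3* A_51_P238448 0.066 and *Cdc25a* 0.16. The ranges over single arrays left out were -0.26 to 0.066 for *Ccnd3* A_51_P238448, -0.14 to 0.17 for A_55_P2041075, -0.17 to 0.18 for *Ccne1* A_51_P408946, -0.21 to 0.16 for *Cdc25a* and -0.063 to 0.28 for *E2f3* A_52_P583458, and for *Ccnd1* -0.086 to 0.11. The cause was not tested. The other 138 member values kept their direction and stayed uncalled. Part of them had to keep it. Other filters, the other variance model and the replicate block leave the log2 fold change of a probe unchanged.

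No label says what a replicate number shared by samples stands for, and the deviations of such samples correlated with r = -0.101 across probes. With the replicate block the lowest adjusted p of a member was 0.976. Crossed pairing, chosen after seeing the data, gave 0 calls and a lowest member value of 0.567. A member reached an unadjusted p under 0.05 with limma in 2 alternatives, *Chek1* with normexp and *Chek1* and *Ccnd2* without *Mir195* replicate 1, with lowest adjusted p of 0.279 and 0.155.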
